A study of Mus musculus with 36 samples.

Results

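Galanin is a secreted neuropeptide, encoded by Gal, and it acts through 3 receptors encoded by Galr1, Galr2 and Galr3. The probe sets of these 4 genes were taken from the deposited expression table through the platform's gene annotation. These are 4 of 17097 named genes and 6 of 45141 probe sets. Gal has the probe set 1460668_PM_at, Galr2 has 1422942_PM_at and Galr3 has 1450581_PM_at. Galr1 has 3, called here by their level the brightest (1427704_PM_a_at), the middle (1450568_PM_at) and the dimmest (1441329_PM_at). All 6 were kept at every step, without a filter on level. Galanin is known from peripheral and central neurons, where its precursor is cut in dense core granules, and its gene is known to rise in sensory neurons after nerve injury. Galr1 and Galr3 are receptors coupled mainly to inhibitory G proteins, which lower cyclic AMP and open potassium channels. Galr2 also couples to Gq and phospholipase C.

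RNA came from mouse stromal cells labelled as the neural fraction of human oral carcinomas, which were grown orthotopically in NSG mice, an immunodeficient strain without mature lymphocytes. The 36 arrays fall into 11 groups in 3 experiments, and the deposited design counts the experiments as 3 biological replicates with 3 or 4 technical replicates each. The sample labels give each group its own biological replicate. The first VDH15 experiment used tumours with the non-targeting shRNA (PLKO) in mice on a diet rich in palmitic acid (PA), a diet rich in oleic acid (OA) or the control diet (CT), 4 arrays per diet. Another VDH15 experiment, called the second here, and one with SCC25 held tumours with an shRNA against CD36 (shCD36), a fatty acid receptor, and PLKO tumours, both on the PA and the CT diet, with 3 arrays per group. SCC25 is an established human oral carcinoma line, and VDH15 is labelled as an oral carcinoma line. Silencing took place in the human cancer cells and mouse Cd36 is no check of it. The probe sets are those of mouse genes, and whether RNA of the human cells also binds them was not tested. The labels give neither mouse age and sex nor whether arrays of 1 group stem from different tumours. Because the samples are bulk RNA, fewer cells of a type and less RNA per cell cannot be told apart.

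The deposited values are log2 intensities with array medians between 5.98 and 6.04. They carry no effect of hybridisation batch, scan batch or cell line once diet and shRNA are taken into account, so the level of a gene cannot be compared between experiments, only between groups of the same experiment. Precision is limited by the 11 groups and 3 experiments, and in fits within 1 experiment by its arrays. Replicates 1 and 2 of the PA group of the first VDH15 experiment and replicate 1 of the PLKO PA group of the second are arrays that an earlier look at these data placed apart from the rest. The labelled fraction was checked by how many markers stood above the background level defined further on. Of 14 Schwann cell and glial markers, 10 were above it on all 36 arrays, among them Sox10, Mbp, Pmp22, Erbb3 and Ngfr, and 3 on 0 arrays (S100b, Gfap and Foxd3). Of 19 peripheral neuron markers, 7 were above it on all 36 arrays (Prph, Stmn2, Elavl3, Scn10a, Dbh, Isl1 and Pou4f1) and 9 on 0 arrays, among them Nefl, Nefm, Nefh, Snap25 and Syn1. The same held on all arrays for 13 of 15 keratinocyte, 8 of 13 fibroblast, 11 of 11 endothelial and 5 of 12 macrophage and leukocyte markers. Over all genes it held for 58.9% on all arrays, and 4463 of 17097 genes were above it on 0 arrays.

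The stretch before and just after the start of Gal is shown because cyclic AMP and the injury signals described further on are known to regulate this gene. It lies on chromosome 19 of GRCm38.p6, at chr19:3414521-3414794 on the minus strand, with 250 bases before the start and 24 after it, from RefSeq. Capitals mark the only hit among the motifs searched.
Gal: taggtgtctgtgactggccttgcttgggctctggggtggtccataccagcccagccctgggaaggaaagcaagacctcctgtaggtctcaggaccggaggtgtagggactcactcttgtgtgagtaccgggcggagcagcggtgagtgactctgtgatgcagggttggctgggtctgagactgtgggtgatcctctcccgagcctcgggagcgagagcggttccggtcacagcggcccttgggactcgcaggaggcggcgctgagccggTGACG
Motifs were searched on both strands of the 300 bases that reach 50 bases past the start. The capitals, TGACG, are the core of a cyclic AMP response element, which occurred 1 time and is held by 20.8% of 32851 promoters of the same length. The full element, TGACGTCA, contains that core, occurred 0 times and is held by 1.79% of them. The AP-1 motif TGANTCA occurred 0 times and is held by 7.81%. The STAT motif, spelled TTC, any 3 letters, GAA, occurred 0 times and is held by 8.30%. A match describes the letters of this window and is no evidence of binding.

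Gal was the brightest of the 6 probe sets and the receptor probe sets were dim. Gal averaged 6.23 ± 0.18 log2 over the 36 arrays (SD), from 5.92 to 6.82, which placed it at the 53.5th percentile of an array's probe sets (median over arrays, 48.9 to 62.9). The brightest Galr1 probe set averaged 5.33 ± 0.10 log2 and Galr3 averaged 5.47 ± 0.09 log2, at the 37.7th and the 40.3rd percentile. Galr2 averaged 4.82 ± 0.13 log2 and the middle Galr1 probe set averaged 4.79 ± 0.17 log2, at the 26.4th and the 25.5th percentile. The dimmest Galr1 probe set averaged 3.50 ± 0.08 log2, at the 0.487th percentile, so the 3 probe sets of Galr1 spanned much of the lower end of the array. Levels of different probe sets also depend on their probes and do not rank the genes by RNA amount.

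The table holds no detection calls, so 86 probe sets of olfactory, vomeronasal and bitter taste receptor genes, which have no known role in tumour stroma, stood in for background. Their 95th percentile lay between 5.49 and 5.78 log2 over the arrays. Gal exceeded it on 36 of 36 arrays. Galr3 exceeded it on 4 arrays, and Galr2 and each of the 3 Galr1 probe sets on 0 arrays. The 90th percentile of the 86 was exceeded by Galr3 on 34 arrays and by the brightest Galr1 probe set on 21. Gal exceeded the mean of every one of the 86 probe sets, but it passed their 99th percentile on an array in only 24 of 36 cases. The array also carries 23 nonspecific probe sets named by 3 to 25 G and C bases. Gal was brighter than those with up to 24 such bases on all 36 arrays and brighter than the one with 25 on 3 arrays. Galr2 and the middle Galr1 probe set sat at the level of nonspecific probe sets with 18 or 19 such bases, and the dimmest Galr1 probe set at that of the one with 11. The base content of the galanin probes was not used here, so the matching rung is not known. At levels this near to background, a difference in log2 intensity can understate a difference in RNA.

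**Figure D1:**
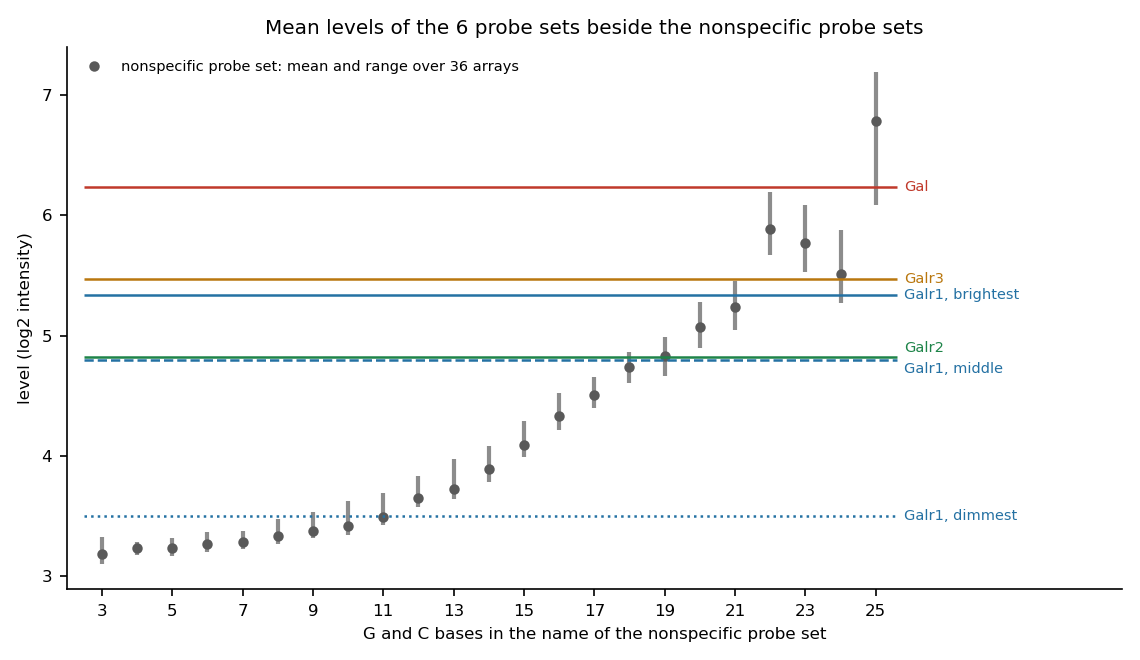
Mean level (log2 intensity, vertical axis) of the 6 galanin and receptor probe sets as horizontal lines, beside the array's nonspecific probe sets ordered by the G and C bases in their name (points are means and grey bars the range over 36 arrays). Gal at 6.23 log2 lies above all of them except the one with 25 such bases, and the receptor lines cross the nonspecific series between 3.50 and 5.47 log2.

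The arrays of Gal were compared group by group within each experiment. In the first VDH15 experiment, Gal stood at 6.43, 6.13, 6.06 and 6.21 log2 on the arrays of PLKO tumours on the PA diet. It stood at 6.42, 5.99, 6.42 and 6.05 log2 on the OA diet. On the CT diet it stood at 5.92, 6.30, 6.14 and 6.16 log2. The arrays of these 3 groups overlapped throughout.

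In the SCC25 experiment, Gal stood at 6.30, 6.82 and 6.25 log2 in shCD36 tumours on the PA diet, and at 6.32, 6.18 and 6.25 log2 in shCD36 tumours on the CT diet. PLKO tumours had 6.08, 6.01 and 6.27 log2 on the PA diet and 6.23, 5.99 and 6.33 log2 on the CT diet. The value of 6.82 was the highest of all 36 arrays and came from replicate 2 of its group, whose other arrays lay within the range of the remaining groups.

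In the second VDH15 experiment, Gal stood at 6.27, 6.14 and 6.44 log2 in shCD36 tumours on the PA diet, and at 6.41, 6.47 and 6.16 log2 in shCD36 tumours on the CT diet. PLKO tumours had 6.07, 6.49 and 6.26 log2 on the PA diet and 6.19, 5.94 and 6.19 log2 on the CT diet. The 4 groups overlapped again.

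By mean of the deposited values, adjusted between experiments, the order of Gal ran from SCC25 shCD36 tumours on the PA diet (6.46 ± 0.32 log2, SD over arrays, n = 3) to PLKO tumours on the CT diet of the second VDH15 experiment (6.11 ± 0.14, n = 3). The largest step between neighbours in this order was 0.11 log2, and each of the 10 neighbouring pairs had overlapping arrays. Within an experiment, the Gal group means ran from 6.13 to 6.22 log2 in the first VDH15, from 6.12 to 6.46 in the SCC25 and from 6.11 to 6.35 in the second VDH15 experiment. Arrays of 1 group had an SD of 0.18 log2 (25 degrees of freedom). The 11 Gal group means had an SD of 0.105 log2, and the spread between arrays of a group alone would give 0.103. The adjustment had taken differences between experiments out of these means, which can lower their SD. The likeness of the values therefore does not show that groups differ no more than arrays.

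Group means of the receptors, in the adjusted values, ran from 5.20 to 5.42 log2 for the brightest Galr1 probe set, from 4.69 to 4.92 for the middle Galr1 probe set and from 3.46 to 3.53 for the dimmest Galr1 probe set. They ran from 4.71 to 4.97 log2 for Galr2 and from 5.40 to 5.55 log2 for Galr3. Arrays of 1 group had an SD between 0.10 and 0.19 log2 for the 5 receptor probe sets. The middle Galr1 probe set spread most within groups, reaching 0.38 log2 (SD, n = 3) in shCD36 tumours on the CT diet of the second VDH15 experiment. The 3 Galr1 probe sets did not vary together over the 36 arrays, with Pearson r of 0.04, −0.04 and −0.11 between pairs, and Gal had r between −0.31 and 0.23 with the receptor probe sets (experiment means subtracted, arrays of 1 group share their source, no test).

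**Figure D2:**
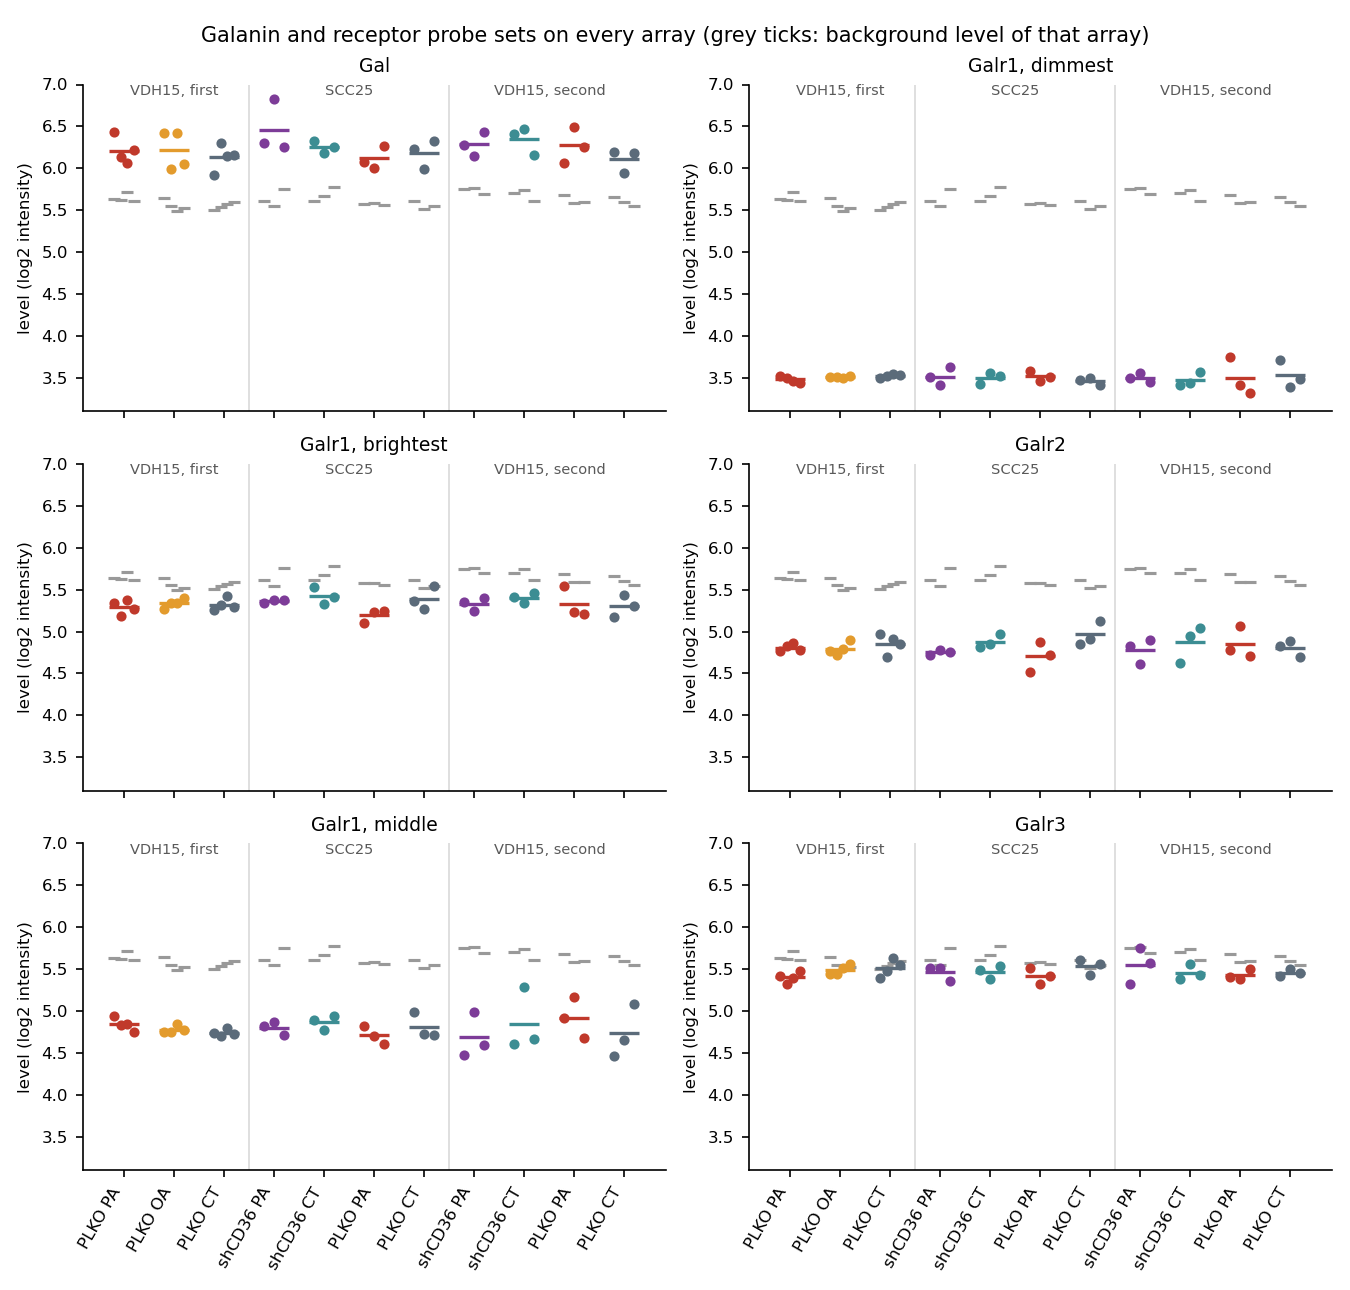
Level (log2 intensity, vertical axis) of each galanin and receptor probe set on every array, by group (horizontal axis, PA, OA and CT are the diets). Points are arrays, coloured bars are group means, the 3 Galr1 panels are its brightest, middle and dimmest probe sets, and grey ticks mark the 95th percentile of the receptor-gene background on the same array. Gal lies above its ticks on all 36 arrays, and the Galr2 and Galr1 points lie below theirs.

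The first comparison asked whether a palmitate-rich diet changed galanin or its receptors in the neural fraction of PLKO tumours. None of the 6 probe sets changed past the threshold. Gal averaged 6.20 log2 on the PA diet and 6.14 log2 on the CT diet (n = 3 experiments), a difference of 0.06 ± 0.08 log2 (SE; limma on the 11 group averages with experiment as a term, adjusted p = 0.748). The 95% interval ran from −0.12 to 0.24 log2, or 0.92- to 1.18-fold. Gal was higher on the PA diet by 0.08 log2 in the first VDH15 experiment and by 0.17 in the second, and lower by 0.07 in SCC25 tumours. Without the 3 arrays placed apart the pooled Gal difference was 0.07 log2 (adjusted p = 0.778). The receptor differences were then −0.09 (brightest Galr1), 0.05 (middle Galr1), −0.06 (dimmest Galr1), −0.07 (Galr2) and −0.07 log2 (Galr3), with 0 of the 6 probe sets called.

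Of the receptors, Galr3 differed by −0.08 ± 0.05 log2 between PA and CT (interval −0.21 to 0.05, adjusted p = 0.471) and Galr2 by −0.09 ± 0.07 (−0.25 to 0.08, adjusted p = 0.571). The Galr1 probe sets differed by −0.07 ± 0.06 (brightest), 0.06 ± 0.07 (middle) and −0.01 ± 0.05 log2 (dimmest), with adjusted p of 0.627, 0.733 and 0.968. The same fit called 1147 of 45037 probe sets, or 2.55%, and 9116 had an unadjusted p under 0.05, while 0 of the 6 had one. The 6 intervals lay between −0.25 and 0.24 log2, which bounds a change on this scale and does not show that there was none.

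Within the first VDH15 experiment, the PA and CT groups each hold 2 arrays of either scan batch. Gal differed by 0.29 log2 between PA and CT in scan batch 2 and by −0.14 in scan batch 3, so the direction was not shared. The SCC25 and second VDH15 experiments each hold 1 scan batch.

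The same diets in shCD36 tumours gave a Gal mean of 6.37 log2 on PA and 6.30 log2 on CT (n = 2), a difference of 0.07 ± 0.09 log2 (interval −0.15 to 0.29, limma adjusted p = 1.00). The receptor probe sets differed by −0.12 to 0.04 log2. This contrast called 0 of 45037 probe sets, or 0%, with 1225 at an unadjusted p under 0.05, none of them a galanin or receptor probe set. The palmitate difference in shCD36 minus that in PLKO tumours was 0.01 ± 0.12 log2 for Gal (interval −0.27 to 0.30, adjusted p = 0.978). For the receptor probe sets it lay between −0.18 and 0.13 log2, and this contrast also called 0% of the probe sets, with 5496 at an unadjusted p under 0.05.

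The next comparison asked whether CD36 in the tumour cells bore on host galanin. In shCD36 tumours against PLKO tumours, Gal averaged 6.37 against 6.20 log2 on the PA diet, a difference of 0.17 ± 0.09 log2 (interval −0.04 to 0.38, or 0.97- to 1.30-fold, limma adjusted p = 0.434). On the CT diet Gal averaged 6.30 against 6.14 log2, a difference of 0.16 ± 0.09 log2 (interval −0.05 to 0.37, adjusted p = 0.992). These were the largest differences of Gal, and both intervals include 0. The PLKO means also hold the first VDH15 experiment, which has no shCD36 group. The contrast called 6 probe sets on the PA diet, or 0.0133%, with 6594 at an unadjusted p under 0.05. On the CT diet it called 0%, with 1763 at an unadjusted p under 0.05. The receptor probe sets differed by −0.08 to 0.09 log2 on the PA diet and by −0.04 to 0.10 log2 on the CT diet.

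The Gal difference on the PA diet rested on the SCC25 experiment. There it was 0.34 ± 0.13 log2 in the fit to the arrays of that experiment alone (adjusted p = 0.156), in which the array at 6.82 takes part, and in the second VDH15 experiment it was 0.01 ± 0.13 log2 (adjusted p = 0.970). On the CT diet it was 0.07 ± 0.13 log2 in SCC25 and 0.24 ± 0.13 log2 in VDH15 tumours. Without array replicate 2 of every group, which holds the array at 6.82, the pooled difference was 0.11 log2 on the PA diet. Without the SCC25 experiment it was 0.03 log2.

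For oleate, with 1 group of 4 arrays in the first VDH15 experiment, Gal averaged 6.22 log2 on the OA diet. The CT and PA means set against it cover all 3 experiments, in adjusted values. Against the CT mean of 6.14 log2 the Gal difference was 0.08 ± 0.12 log2, and the receptor probe sets differed by −0.08 to 0.01 log2. PA differed from OA by −0.02 ± 0.12 log2 for Gal and by −0.07 to 0.05 log2 for the receptor probe sets. Within the first VDH15 experiment alone, Gal averaged 6.13 log2 on CT. There it differed by 0.09 ± 0.12 log2 for OA over CT and by −0.01 ± 0.12 log2 for PA over OA. The OA against CT contrast called 0%, with 840 probe sets at an unadjusted p under 0.05, and PA against OA called 0.0333%, with 4257 at an unadjusted p under 0.05. Contrasts with the same diet group share its arrays.

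**Figure D3:**
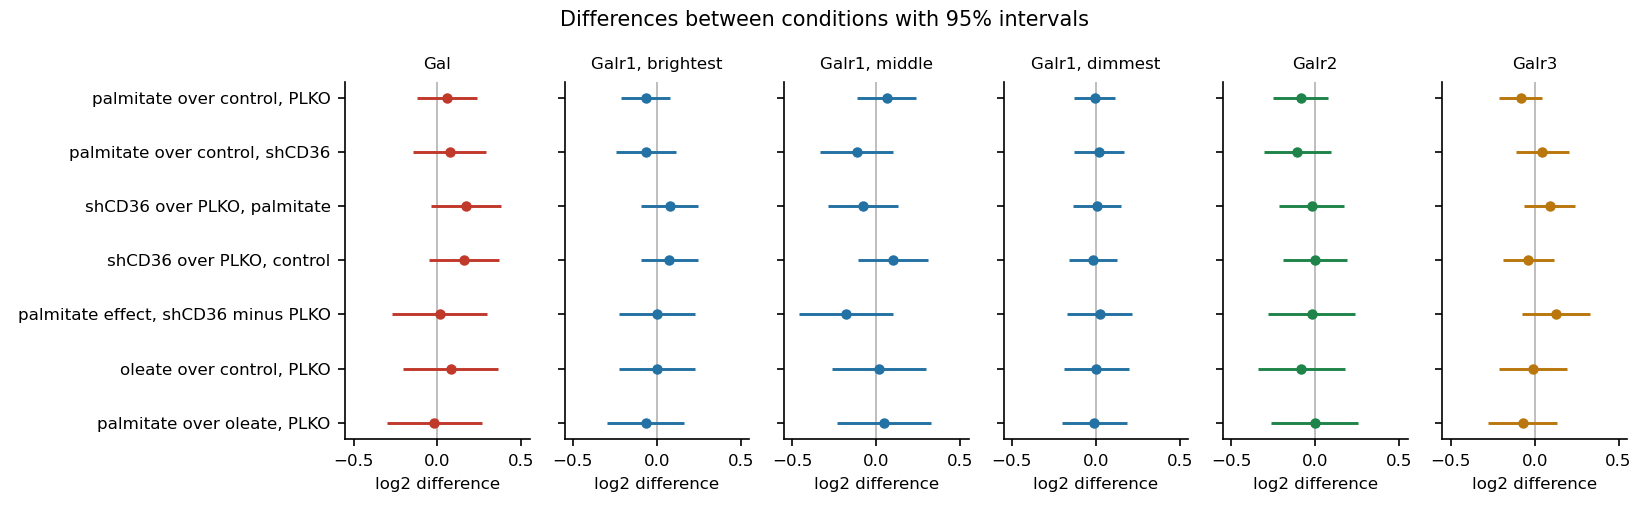
Log2 difference (horizontal axis) of each galanin and receptor probe set in the 7 contrasts, as points with 95% intervals from limma on the group averages. Each of the 42 intervals includes 0, and the farthest points of Gal are the shCD36 over PLKO differences of 0.17 and 0.16 log2.

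Fits to arrays of 1 experiment at a time, whose error covers only arrays labelled technical replicates, called 0 of 78 galanin and receptor values. Of these values, 3 had an unadjusted p under 0.05. They were Galr2 and the brightest Galr1 for PA over CT in SCC25 PLKO tumours, and Gal in SCC25 shCD36 over PLKO on PA. For Gal this limma p was 0.0230, with an interval of 0.05 to 0.63 log2. The share of all probe sets these fits called was 32.5% for PA over CT, 0.651% for OA over CT and 25.7% for PA over OA in the first VDH15 experiment. In SCC25 tumours it was 11.6% for PA over CT in PLKO, 3.96% for PA over CT in shCD36, 5.43% for shCD36 over PLKO on CT, 8.17% for shCD36 over PLKO on PA and 9.16% for the difference of the PA effect. In the second VDH15 experiment the same shares were 7.37%, 0.515%, 0.351%, 14.7% and 4.63%. The smallest adjusted p was that of Galr2 in SCC25 PLKO tumours, where the arrays stood at 4.52, 4.88 and 4.72 log2 on PA and at 4.85, 4.92 and 5.13 log2 on CT, a difference of −0.26 ± 0.09 log2 (limma adjusted p = 0.101). The groups overlapped by 1 array. The brightest Galr1 probe set was also lower there, at 5.11, 5.24 and 5.24 log2 on PA against 5.37, 5.26 and 5.54 log2 on CT, with no overlap (−0.19 ± 0.08 log2, adjusted p = 0.162). The arrays of 27% of all probe sets did not overlap in that comparison. In the first VDH15 experiment, the same difference was −0.05 ± 0.06 log2 for Galr2 and −0.03 ± 0.05 log2 for this Galr1 probe set. In the second it was 0.05 ± 0.13 log2 for Galr2 and 0.02 ± 0.11 log2 for this Galr1 probe set. Of 66 such pairs of galanin and receptor values within experiments, 3 had no overlap, or 4.55%. The others were also in SCC25. Galr2 was lower on PA than on CT in shCD36 tumours (−0.12 ± 0.09 log2). The brightest Galr1 was higher in shCD36 than in PLKO tumours on PA (0.17 ± 0.08 log2). The share of all probe sets without overlap is not given for these.

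The genes around the galanin system were read from lists, each gene by its brightest probe set. In PLKO tumours on PA against CT, 580 of 17097 genes, or 3.39%, passed, 280 higher and 300 lower, with a median difference of −0.02 log2. With only the groups of this contrast, 0 probe sets passed (7841 at an unadjusted p under 0.05). The count was also 0 without the SCC25 experiment (5313) and without the second VDH15 experiment (5185), so each call on a listed gene in this contrast ended there. Among 19 genes for injury signals and factors known to regulate galanin, 3 rose and 0 fell, with a median of 0.10 log2. They were 2 cytokines of the interleukin 6 family and a receptor of that family. Il6, a cytokine that signals through gp130, averaged 9.40 ± 0.47 log2 on PA and 8.00 ± 0.29 log2 on CT (SD, n = 3 each), and rose by 1.39 ± 0.26 log2 (SE, limma adjusted p = 0.0484). Its group means were 9.41, 9.86 and 8.92 log2 on PA and 7.99, 7.72 and 8.30 log2 on CT in the order first VDH15, SCC25, second VDH15.

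Lif, a gp130 cytokine known to induce galanin in injured neurons, had group means of 9.38, 9.04 and 9.36 log2 on PA and 8.44, 8.62 and 8.62 log2 on CT in the same order of experiments. It rose by 0.70 ± 0.12 log2 (limma adjusted p = 0.0408). Lifr, a receptor subunit for Lif, rose by 0.31 ± 0.05 log2 (adjusted p = 0.0407), with means of 7.24 ± 0.03 log2 on PA and 6.92 ± 0.04 log2 on CT. In those tumours the Gal difference was 0.06 log2. The neurotrophic receptor Ret, the 4th gene by p, differed by 0.46 ± 0.12 log2 and did not pass (adjusted p = 0.0858).

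Marker genes of other cells moved in the same contrast, where 3.39% of all genes passed. Keratinocyte markers had a median difference of −0.45 log2, and 2 of 15 fell, Krt4 and Krt10. Krt10 ended near background, with PA group means of 5.51, 5.17 and 4.97 log2, and was above background on 29 of 36 arrays. Summed levels here are linear intensities added and then put on a log2 scale, so bright genes weigh most. They cover the 10 arrays per diet of all experiments, in adjusted values, with the 3 arrays placed apart included. For keratinocyte markers the summed level ran from 14.62 to 15.49 log2 on PA and from 15.29 to 15.79 log2 on CT. Fibroblast markers had a median of 0.84 log2, and 2 of 13 rose, Postn and Thy1, with summed levels from 14.26 to 16.00 log2 on PA and from 12.87 to 14.12 log2 on CT. Endothelial markers had a median of 1.57 log2, and 2 of 11 rose, Plvap and Vwf, with summed levels from 13.31 to 14.19 log2 on PA and from 11.50 to 12.90 log2 on CT. Of 12 macrophage and leukocyte markers 1 rose, Cd14, with summed levels of 10.19 to 11.55 log2 on PA and 9.53 to 10.45 log2 on CT, and 5 of the 12 were above background on all 36 arrays (Csf1r, Cd68, Mrc1, Cd14 and S100a9) and 3 on 0 arrays (Adgre1, Itgam and Cd163). The part of these cells in the rise of Il6, Lif and Lifr was not tested.

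Nerve markers moved both ways, in a contrast where 3.39% of all genes passed. Of 14 Schwann cell and glial markers, the sodium channel gene Scn7a rose by 1.31 ± 0.16 log2 (limma adjusted p = 0.0262) and the adhesion gene L1cam fell by 0.57 ± 0.05 log2 (adjusted p = 0.0161). Sox10 differed by 0.02 ± 0.07 log2. The summed Schwann cell and glial level ran from 12.31 to 12.62 log2 on PA and from 12.15 to 12.50 log2 on CT. Of 19 peripheral neuron markers 1 fell, the neuronal tubulin gene Tubb3, by 1.16 ± 0.14 log2 (adjusted p = 0.0259), with group means of 6.03, 6.45 and 6.14 log2 on PA and 7.54, 7.26 and 7.30 log2 on CT. The summed neuron level, in which bright genes weigh most, ran from 9.84 to 10.20 log2 on PA and from 10.10 to 10.37 log2 on CT. The median difference of the neuron markers was −0.01 log2, with 8 of 19 above 0. For the Schwann cell and glial markers it was −0.03 log2, with 5 of 14 above 0. Of 10 skeletal muscle markers 0 passed, with a median of −0.05 log2.

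Downstream of the receptors, 2 of 31 G protein signalling genes rose and 0 fell, where 580 of 17097 genes, or 3.39%, passed. They were the adenylyl cyclase gene Adcy7 (1.07 ± 0.12 log2, limma adjusted p = 0.0253) and the phospholipase C gene Plcb1 (0.93 ± 0.16 log2, adjusted p = 0.0437). Of 16 peptide processing and dense core granule genes 1 rose, Pam, which amidates peptides such as galanin at their end (0.58 ± 0.10 log2, adjusted p = 0.0421). No gene passed among 19 neuropeptide precursors or 31 neuropeptide receptors, whose medians were −0.03 and 0.02 log2. The precursor genes with the smallest p were Penk, the enkephalin precursor, at 0.61 ± 0.19 log2 (adjusted p = 0.131), and Nts, the neurotensin precursor, at 1.41 ± 0.51 log2 (adjusted p = 0.181). Among neuropeptide receptors, the endothelin receptor gene Ednrb, at 0.79 ± 0.15 log2 (adjusted p = 0.0520), and Calcrl, part of receptors for calcitonin gene-related peptide and adrenomedullin, at 1.67 ± 0.41 log2 (adjusted p = 0.0834), came nearest. In the other 6 contrasts 0 listed genes passed, where 0.0234% of genes passed for shCD36 over PLKO on PA, 0.0292% for PA over OA and 0% for the other 4. Of the closest relatives of the family, Kiss1r differed by 0.05 ± 0.06 log2 and the spexin gene Spx by 0.05 ± 0.07 log2, and neither passed.

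Without the 3 arrays placed apart, Il6 and Lif passed (adjusted p = 0.0499 and 0.0373) and Lifr did not (0.0815), so 2 of 19 regulator genes rose. Adcy7, Scn7a, L1cam, Tubb3, Krt10, Postn, Vwf, Cd14, the keratinocyte gene Cdh1 and the fibroblast gene Fap passed, and Plcb1, Pam, Krt4, Thy1 and Plvap did not. Krt4 differed by −0.90 log2 without these arrays and by −1.95 log2 with them. Of all genes, 431 passed without them. The keratinocyte median was then −0.22 log2, the fibroblast median 0.65, the endothelial median 1.34, the macrophage and leukocyte median 0.20 and the regulator median 0.15 log2.

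**Figure D4:**
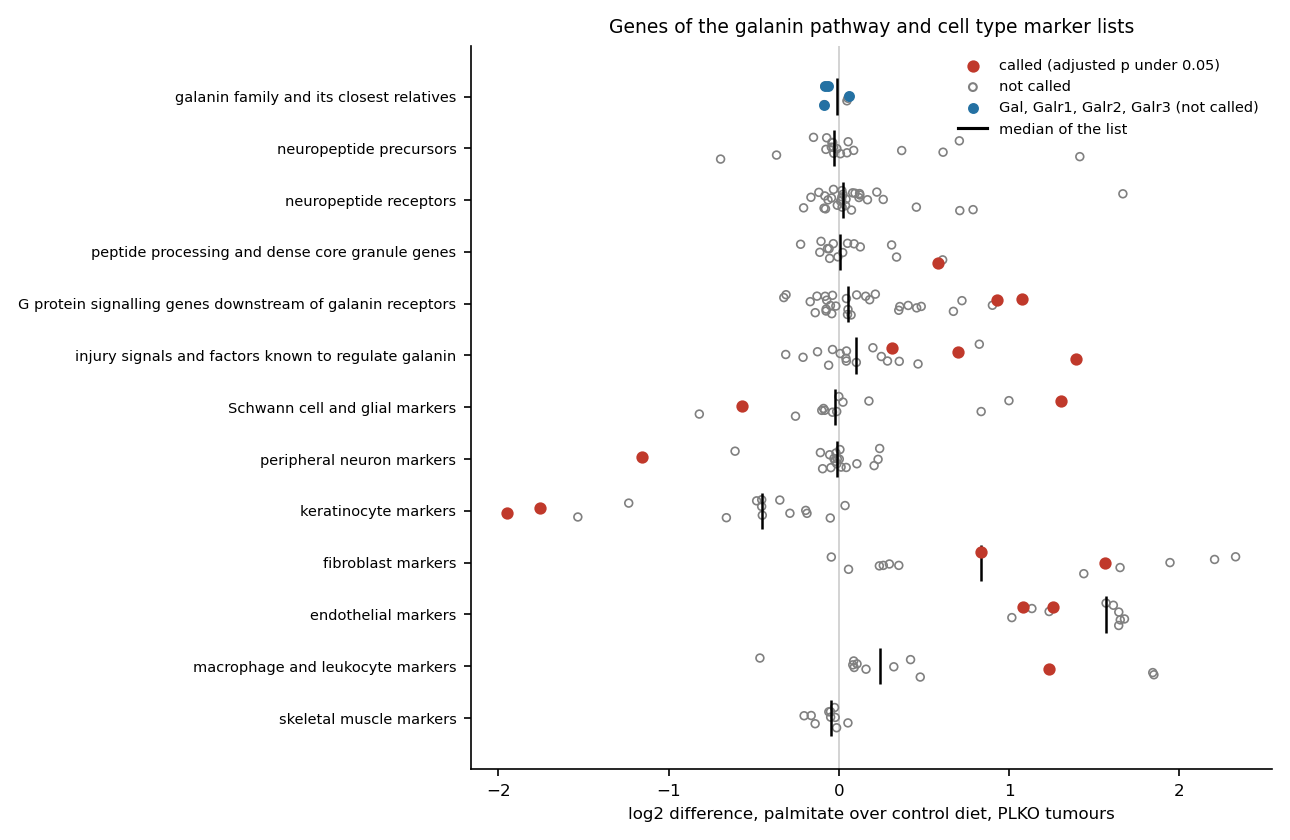
Log2 difference of palmitate over control diet in PLKO tumours (horizontal axis) for each gene of the pathway and marker lists (rows). Filled red points passed at an adjusted p under 0.05, open points did not, blue points are the galanin and receptor genes and bars are list medians. The 4 blue points lie between −0.09 and 0.06 log2, while the endothelial median lies at 1.57 log2.

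Genes whose pattern over arrays was most like that of Gal were ranked by Pearson r over the 36 arrays after the experiment means were subtracted, among 21511 probe sets of 12971 genes. The highest were Wdr83os (r = 0.70), Bola2 (0.60), Ndufaf8 (0.59), Fam187a (0.58), Necap2 (0.57) and the serotonin receptor gene Htr1b (0.56). Over the 11 group means their r ran from 0.18 for Necap2 to 0.77 for Fam187a. The lowest were Mbtps1 (−0.63), the nuclear RNA Malat1 (−0.58), Dcaf12 (−0.58), Rnf135 (−0.56), Hnrnpc (−0.56) and Dhx58 (−0.55). The percentiles 1 and 99 of r over the ranked probe sets were −0.38 and 0.41. These values describe the arrays, which share groups and batches, and no test was made. The SD of the 11 Gal group means was 0.105 log2, against 0.103 given by array spread alone, with differences between experiments already taken out of the means.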

How the data were processed

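Mouse stromal RNA of 11 groups, isolated on magnetic beads and amplified per the labels' protocols, was measured on 36 arrays, and the submitters' processing notes name RMA and affy. The deposited values are on a log2 scale. Coefficients of hybridisation batch, scan batch and cell line were under 1e-06 in 100% of the deposited log2 probe sets with diet and shRNA kept and in 0.00222% without them, so the table had been adjusted for these factors. The genome build of the array annotation is not given in the sources used here.

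The mean over a group's arrays was taken. The 11 means entered a limma 3.58.1 (R 4.3.3) model of 45037 probe sets (104 array controls left out) with condition and experiment as terms (4 residual degrees of freedom), for 7 contrasts. A Benjamini-Hochberg adjusted p under 0.05 over all probe sets was called. Because each group is 1 biological replicate, p-values rest on the spread left among the 11 group means, which all contrasts share. For the OA contrasts, with 1 OA group, that spread comes from the other conditions. The experiments pair the groups by hybridisation batch.

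In each list, the up to 4 genes with the smallest unadjusted p were named, and values of others were given where a marker is missing or a comparison turns on it, chosen after their values were seen. For likeness to Gal, the 25% of probe sets with the lowest mean were left out and the 6 highest and 6 lowest r were named. A list was described by counts and medians. The members and lists were chosen with earlier results of these data known. Filters, units, block, variance, scaling, left-out arrays and experiments were tried as alternatives.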

Additional observations from a re-analysis of the deposited data

How the results depend on the processing

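The count of called galanin and receptor probe sets was 0 in all 7 contrasts under the design as reported and under the 16 alternatives that could be fitted, and the smallest adjusted p of any of them was 0.152 (Gal, shCD36 over PLKO on PA, no replicate block). With no replicate block, that is without the experiment term, 0 probe sets of the family passed, and 1 had an unadjusted p under 0.05 in each shCD36 over PLKO contrast. The calls over all probe sets for PA over CT in PLKO tumours moved more, to 6445 without the block, 7703 with duplicateCorrelation, 0 with only the groups of the contrast, 329 without biological replicate 1 (first VDH15), 0 without 2 (SCC25) or 3 (second VDH15), and 331 to 1455 without 1 array replicate, against 1147. For shCD36 over PLKO on PA they ran from 0 to 3957, against 6. The number of probe sets above background on every array, 1 as reported, was 0 with the 99th percentile of the receptor genes, 3 with the 25th percentile of all probe sets, and, chosen after seeing the data, 0 against the nonspecific probe set of 25 G and C bases and 5 against their median. OA contrasts could not be fitted with only their groups or without biological replicate 1. Of 606 recomputed differences, 55 changed sign, all of them uncalled and at most 0.18 log2 in size. Outside the left-out replicates these were, in log2, with arrays centred on their median 0.0037 (dimmest Galr1, PA over CT in PLKO tumours), −0.0050 (dimmest Galr1, shCD36 over PLKO on PA), 0.011 (brightest Galr1, OA over CT), 0.0011 (Galr3, OA over CT); with all arrays and duplicateCorrelation 0.00031 (Galr2, shCD36 over PLKO on CT), −9.7e-05 (brightest Galr1, the difference of the PA effect), 0.00077 (brightest Galr1, OA over CT); with only the groups of the contrast −0.00099 (dimmest Galr1, shCD36 over PLKO on PA); with the mean of a gene's probe sets (Galr1 values) −0.051 (brightest Galr1, the difference of the PA effect), 0.0052 (brightest Galr1, OA over CT); without the 3 arrays placed apart −0.010 (dimmest Galr1, OA over CT), 0.013 (Galr2, PA over OA). Leaving out 1 biological or array replicate gave ranges that cross 0. For PA over CT in PLKO tumours these were −0.0071 to 0.17 (middle Galr1), −0.039 to 0.013 (dimmest Galr1), −0.16 to 0.00042 (Galr2). For PA over CT in shCD36 tumours these were −0.062 to 0.21 (Gal), −0.013 to 0.036 (dimmest Galr1), −0.016 to 0.089 (Galr3). For shCD36 over PLKO on CT these were −0.012 to 0.17 (middle Galr1), −0.070 to 0.069 (dimmest Galr1), −0.058 to 0.054 (Galr2). For shCD36 over PLKO on PA these were −0.21 to 0.042 (middle Galr1), −0.052 to 0.090 (dimmest Galr1), −0.090 to 0.10 (Galr2), −0.0082 to 0.16 (Galr3). For the difference of the PA effect these were −0.18 to 0.20 (Gal), −0.069 to 0.092 (brightest Galr1), −0.14 to 0.10 (Galr2). For OA over CT these were −0.029 to 0.050 (brightest Galr1), −0.019 to 0.055 (middle Galr1), −0.014 to 0.017 (dimmest Galr1), −0.024 to 0.0029 (Galr3). For PA over OA these were −0.14 to 0.088 (Gal), −0.025 to 0.0032 (dimmest Galr1), −0.040 to 0.041 (Galr2). The cause was not tested. Without the 3 arrays placed apart, added after seeing the data, 10 of the 13 lists kept their count of called genes for PA over CT in PLKO tumours to within 1.5 times, and peptide processing had 0 against 1, G protein signalling 1 against 2 and endothelial markers 1 against 2.

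Limits: each group is 1 biological replicate, oleate has 1 group, the receptors lie at or near background on these arrays, and the arrays of a group are labelled technical replicates.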

Other observations

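In shCD36 against PLKO tumours on the PA diet, none of the 19 regulator genes passed. Values of the 3 that rose with palmitate in PLKO tumours were −1.55 ± 0.30 log2 for Il6 (limma adjusted p = 0.131), −0.64 ± 0.14 for Lif (adjusted p = 0.147) and −0.45 ± 0.06 for Lifr (adjusted p = 0.0872). This contrast shares the PLKO PA arrays with the one above. In it, the endothelial markers had a median of −1.17 log2 and the fibroblast markers −0.71 log2, with 0 of 11 and 0 of 13 passing, and the keratinocyte markers 0.36 log2 with 0 of 15 passing. Without the 3 arrays placed apart these medians were −1.01, −0.59 and 0.21 log2. The Gal difference there was 0.17 ± 0.09 log2 and did not pass.

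On the OA diet of the first VDH15 experiment, group means of Il6 and Lif were 7.72 and 8.21 log2, against 7.99 and 8.44 log2 on the CT diet of that experiment. Lifr went the other way, with 6.96 log2 on OA and 6.89 log2 on CT.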
